A study of Drosophila melanogaster with 12 samples.

Results

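The data are gene counts from the heads of ADAR hypomorph flies (Drosophila melanogaster) grown at 18°C or at 29°C. The comparison takes 3 libraries at 18°C against 3 libraries at 29°C, chosen by strain and temperature alone, and they are 6 of the 12 libraries of the series. The other 6 come from the heads of WT flies, the control strain, grown at the same temperatures, 3 libraries at each, and serve below as the reference for the hypomorph response. Flies of all 4 groups were harvested between 3 and 6 days after eclosion, and total RNA was made into libraries of the 3′ ends of transcripts. The hypomorph carries a transposon insertion in an intron of Adar, and the stock list of the study writes its allele as Adar5G1. The sources used here state neither the sex of the flies nor the time of day of harvest. Nothing states that the libraries of a group came from separate cultures, so the p-values measure the spread between these libraries. The question was which gene functions and families were higher at each temperature in the ADAR hypomorph strain. The study describes this strain as substantially reduced in ADAR levels and activity.

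ADAR is the enzyme that converts adenosine to inosine in double-stranded RNA, and in flies its best known targets are transcripts of neuronal ion channels and of the synaptic release machinery. Flies do not regulate their body temperature, so the rate of every reaction in the head follows that of the surroundings. Heat is known to induce chaperones that refold proteins. Cold is known to change membrane lipids, clock gene splicing and secreted stress proteins. The head holds the brain, the compound eyes, antennae, muscle, glia, blood cells, cuticle and a fat body that secretes yolk and immune proteins.

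The 6 hypomorph libraries held 4409119 to 8806472 counts, the smallest being the 18°C library without a replicate number. The test kept 9553 of the 15423 genes in the table. Normalized counts below are counts scaled by the trimmed mean of M-values (TMM) to a mean effective library, and within each temperature they are given in the order library without a number, replicate 2, replicate 3. Fold changes are log2 of 18°C over 29°C, with the standard error (SE) of the edgeR fit, and a gene was called at an adjusted p under 0.05. Counting intervals, where given, cover counting error only. An exact permutation test of 3 libraries against 3 cannot give a p under 0.1, so single genes were tested only in the fit across all genes. Adar itself stood at 262, 156.6 and 194.8 normalized counts at 18°C and 170.9, 163.3 and 150.5 at 29°C. Its groups overlapped, and the log2 fold change of 0.32 ± 0.14 had an adjusted p of 0.1, which fell to 0.0115 without 18°C replicate 2 (log2 fold change 0.49).

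Temperature moved a large part of the head transcriptome. Of the 9553 genes, 1584 were higher at 18°C (16.6%) and 1491 were higher at 29°C (15.6%), while 6478 were not called. These shares of all genes are the reference for the family counts below. Most shifts were small, with a median log2 fold change of 0.52 among the genes called at 18°C and -0.54 among those called at 29°C. Over 2-fold, 259 genes were higher at 18°C (2.71%) and 226 at 29°C (2.37%). Over 4-fold, the counts were 59 and 55. The 2 temperature groups did not overlap in 3001 of the 3075 called genes. Called genes tend to separate by the way they are called, and the share of all 9553 genes without overlap was not counted. The 3001 are thus a description and no further evidence for the calls. TMM scaling put the median of all genes at 0.01. With plain library totals the median was 0.20, and 3003 genes were called at 18°C against 840 at 29°C, so that 78.1% of calls were higher at 18°C instead of 51.5%. Changes below are relative to the TMM scale, and families whose balance turned on this choice are named as such. In bulk heads, fewer cells of a type and less RNA per cell cannot be told apart.

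**Figure D1:**
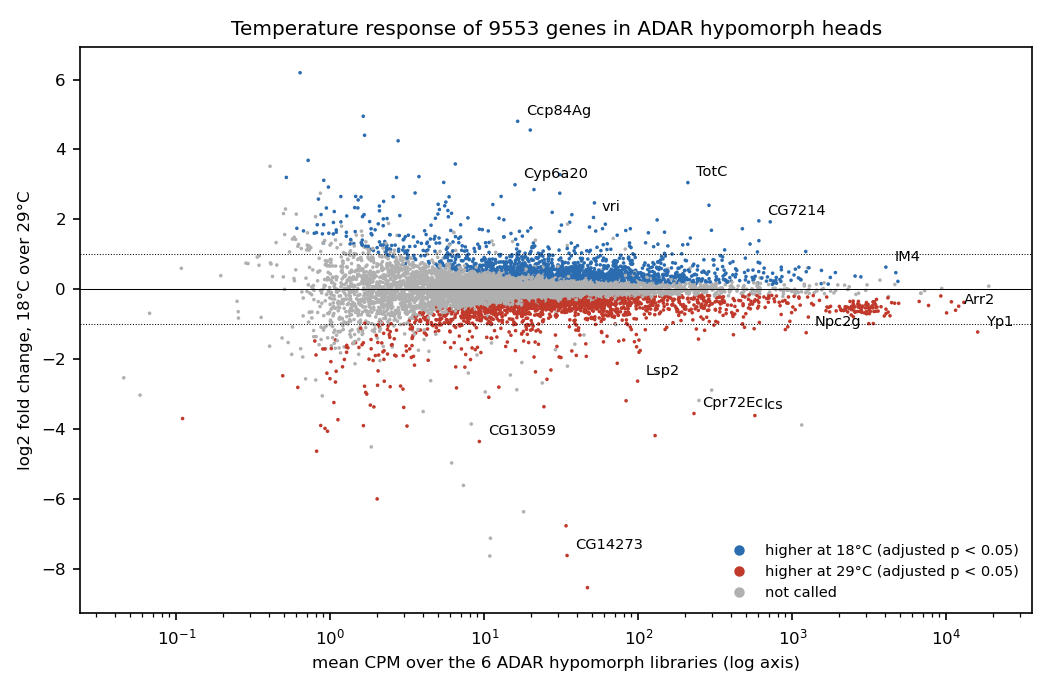
Each point is 1 of the 9553 genes tested in ADAR hypomorph heads, with mean CPM over the 6 libraries on a log x axis and the log2 fold change of 18°C over 29°C on the y axis. Blue points are the 1584 genes called at 18°C and red points the 1491 called at 29°C, dotted lines mark 2-fold, and the tight red cluster at high CPM holds cytosolic ribosomal protein genes with a median of -0.52.

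The largest changes at 18°C included cuticle, stress and uncharacterised genes, taken among called genes with a mean of at least 10 normalized counts at 1 temperature and no overlap. Ccp84Ag, a cuticle protein gene, stood at 255.2, 189.4 and 218.7 normalized counts at 18°C against 8.41, 10.5 and 3.86 at 29°C (log2 fold change 4.81 ± 0.27, adjusted p 7.03e-09). TwdlE, of the Tweedle cuticle family, stood at 43.4, 34.6 and 31.6 against 2.8, 2.43 and 0 (4.25 ± 0.54). The uncharacterised CG11459 stood at 396.3, 392.7 and 378.4 against 38.3, 36.4 and 45.4 (3.28 ± 0.14). These 3 genes had at most 45.4 normalized counts in any 29°C library. The other genes among the 12 largest were CG32368 (4.56), CG1722 (4.41), CG13063 (3.59), CG13840 (3.22), the methuselah-like receptor gene mthl3 (3.12), CG13639 (3.06), the stress gene TotC (3.05) and the noncoding genes CR44989 (4.95) and CR44127 (3.20). CR44989 had 2 counts in all at 29°C against 69 at 18°C, a ratio of 37.7 (95% interval 10 to 317). CG1722 had 3 counts in all at 29°C, a ratio of 23.3 (7.62 to 116). The call of CG13639 was lost without the 18°C library that carries no number (adjusted p 0.0509).

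At 29°C the largest changes by the same rule were mostly in uncharacterised genes. CG14273 stood at 5.43, 2.6 and 0 normalized counts at 18°C against 421.2, 428.4 and 579.0 at 29°C (log2 fold change -7.62 ± 0.35, adjusted p 5.09e-09), while WT had almost none at either temperature (0.338 and 0 on average). CG13059 stood at 6.79, 5.19 and 5.98 against 123.3, 116.4 and 129.3 (-4.36 ± 0.33), and WT showed nearly the same change (-3.81). CG34456 stood at 2.72, 3.46 and 1.71 against 38.3, 44.5 and 40.5 (-3.91 ± 0.40). All 3 were close to 0 at 18°C. The remaining genes of the 12 largest were CG7763 (-3.90), lcs (-3.61), CG13947 (-4.19), and 6 with 1 to 3 counts in all at 18°C: CG10472, CG15473, CG4020, CG4995, CG11626 and the cytochrome P450 gene Cyp304a1. For CG15473 the count ratio of 29°C over 18°C was 33.9 (5.72 to 1370) and for Cyp304a1 it was 17.4 (4.5 to 149). CG10472 was highest in 29°C replicate 2 (72.7 against 7.47 and 2.9) and lost its call without it (adjusted p 0.249), as it did without any one 18°C library (adjusted p 0.0756 to 0.0921). In lcs and CG13947 the 18°C libraries disagreed: lcs stood at 86.9, 47.6 and 1636 against 7056, 7779 and 7203, and CG13947 at 2.72, 5.19 and 253.7 against 1101, 2309 and 1686. The high library was 18°C replicate 3 in both, and without it the log2 fold changes were -6.83 for lcs and -8.61 for CG13947.

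Among abundant genes the shifts were smaller and the libraries tighter. The 8 most abundant genes over 2-fold higher at 18°C were CG18067 (1.08), CG7214 (1.96), CG13315 (1.93), CG34227 (1.39), CG12116 (1.29), the noncoding RNA roX1 of the dosage compensation complex (1.07), the glutaminyl cyclase gene isoQC (1.73) and the cytochrome P450 gene Cyp6d5 (1.13). isoQC stood at 4897, 4801 and 5489 normalized counts at 18°C against 1501, 1561 and 1509 at 29°C, an adjusted p of 3.04e-10. The 8 most abundant at 29°C were the yolk protein gene Yp1 (-1.22), Npc2g of a sterol-binding family (-1.24), CG14629 (-1.07), the elongation factor gene Ef1beta (-1.15), lcs (-3.61), the phototransduction channel gene trpl (-1.13), the nucleolar GTPase gene Non1 (-1.09) and Nurf-38, an inorganic pyrophosphatase (-1.30). Npc2g stood at 4675, 5351 and 5207 at 18°C and between 11960 and 12080 at 29°C. roX1 was high in the 18°C library without a number (7901 against 4639 and 4226) and stood between 2174 and 2942 at 29°C.

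**Figure D2:**
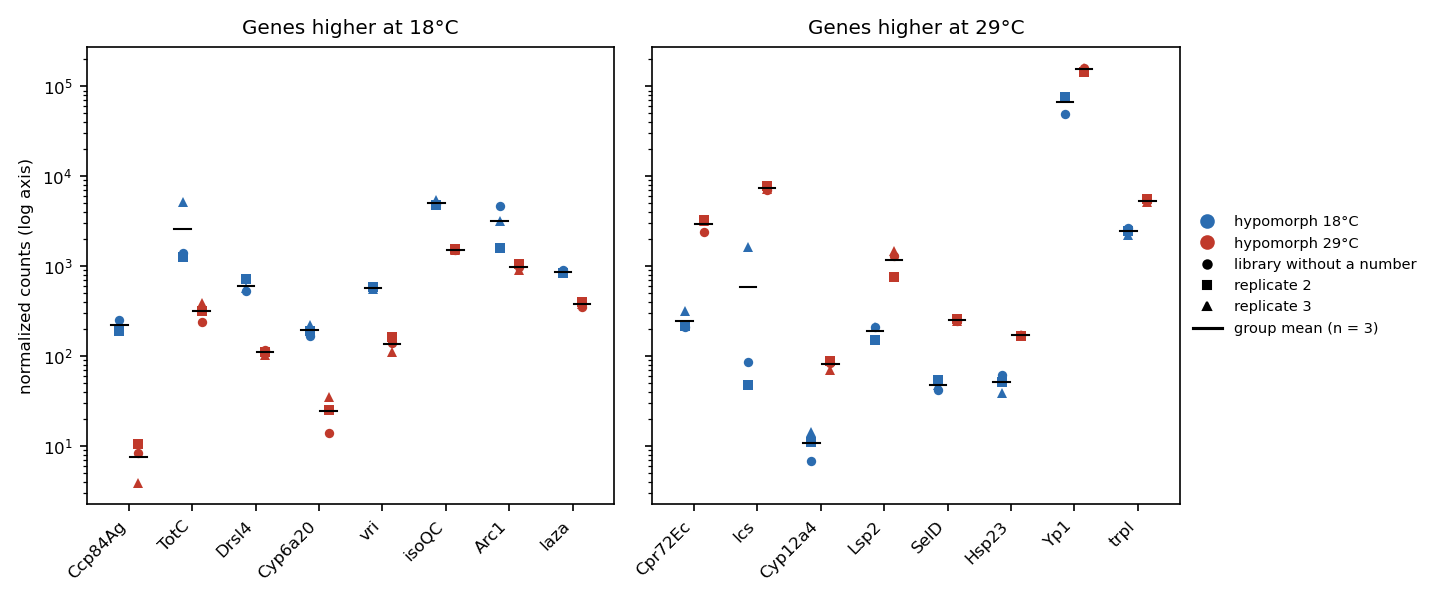
Normalized counts (log axis) of 8 genes higher at 18°C (left) and 8 higher at 29°C (right) in every ADAR hypomorph library, blue for 18°C and red for 29°C, with the symbol giving the library and a bar the mean of 3. All 16 genes separate the temperatures, and the wide spreads are TotC and lcs at 18°C, where replicate 3 stands at 5159 and 1636.

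Secreted stress and immune genes were among the groups higher at 18°C. The Turandot genes encode secreted peptides of the fat body that are known to be induced by stress, cold included. Of 6 tested Turandot and cold-stress genes 4 were called at 18°C and none at 29°C, with a median log2 fold change of 1.39 against 0.01 for all genes. TotA stood at 2595, 1706 and 5781 normalized counts at 18°C against 602.4, 590.8 and 715.1 at 29°C (2.40 ± 0.30, adjusted p 2.03e-05). TotC stood at 1389, 1253 and 5159 against 241.9, 314.4 and 387.0, TotM at 143.9, 224.9 and 603.1 against 91.5, 134.2 and 85.9 (1.66 ± 0.37), and TotX at 251.1, 281.1 and 340.0 against 132.6, 147.9 and 121.6 (1.12 ± 0.11). Without 18°C replicate 3 the log2 fold changes were 1.76 for TotA, 2.07 for TotC and 0.84 for TotM, all still called. Replicate 3 was the highest of the 18°C libraries in all 4, and no 18°C library reached down into the 29°C range. In WT 5 of the 6 genes were called at 18°C. The response of TotX was larger in the hypomorph than in WT, where its log2 fold change was 0.33 (difference 0.79, adjusted p 0.0112).

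Antimicrobial peptides are made by the fat body and blood cells, the antifungal Drosomycin family mainly through the Toll pathway and the antibacterial Diptericins, Attacins and Cecropins mainly through Imd. Of 24 peptide genes tested, 10 were called at 18°C and none at 29°C (median 0.28). Among the called genes Drsl4 and Drsl3, relatives of Drosomycin, had the largest values. Drsl4 stood at 526.6, 724.8 and 580.1 normalized counts at 18°C against 117.7, 110.7 and 102.3 at 29°C (2.47 ± 0.12, adjusted p 7.56e-10), Drsl3 had a log2 fold change of 2.28 ± 0.25, and Drs had 1.68 ± 0.25. The Toll-responsive IM4, one of the most abundant peptides, stood between 30410 and 39880 at 18°C and between 20740 and 24010 at 29°C (0.63 ± 0.08). Drsl4 and Drs did not overlap between temperatures in any library.

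The antibacterial peptides behaved differently, and 1 library decided their values. In 29°C replicate 2, AttC stood at 695.1 against 27.1 and 17.4 in the other 29°C libraries, and between 135.8 and 182.5 at 18°C. Dpt stood at 882.6 against 43.0 and 4.83, and CecC at 313.6 against 5.6 and 1.93. None of these 3 was called with all libraries. Without that library AttC was higher at 18°C (2.83, adjusted p 0.000147), as was Mtk (1.69, adjusted p 0.00621), while Dpt (1.97) had an adjusted p of 0.0584. Def, called with all libraries (1.78, adjusted p 0.0282), had 4.07 without replicate 2 and lost its call without the 18°C or the 29°C library without a number, or without either replicate 3 (adjusted p 0.0684 to 0.0998), and in the fit of the 6 hypomorph libraries alone (adjusted p 0.0501). Leaving out 29°C replicate 3 instead gave 7 peptide genes called at 29°C, and leaving out the 29°C library without a number gave 4. The same replicate 2 was also high in gut protease transcripts. Jon99Cii stood at 1935 in it against 6.54 and 1.93. The part of this library in the peptide values was tested only by leaving it out. The WT 29°C library of the same number was also high in some of these genes. CecC stood at 245.3 in it against 28.29 and 15.07 in the other WT 29°C libraries, and AttC at 1242 against 754.1 and 491.3. Why replicate 2 was high in both strains was not tested.

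**Figure D3:**
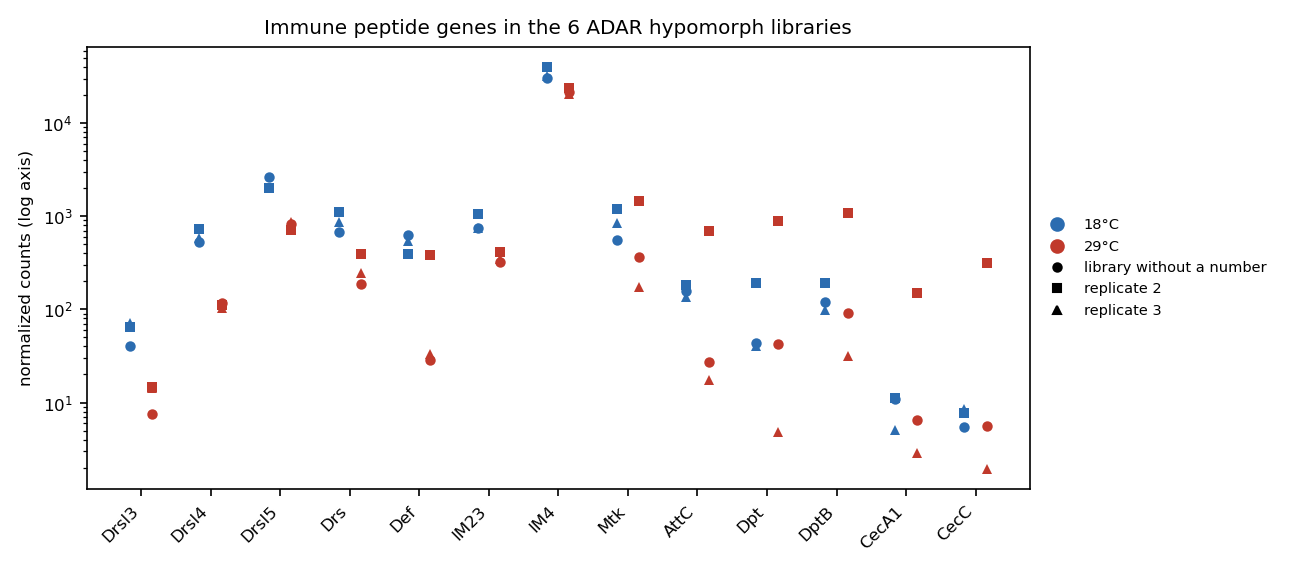
Normalized counts (log axis) of 13 immune peptide genes in the 6 ADAR hypomorph libraries, blue for 18°C and red for 29°C, with the symbol giving the library. The Drosomycin relatives at the left lie apart by temperature, whereas for AttC, Dpt, DptB, CecA1 and CecC 29°C replicate 2 (red square, 695.1 for AttC) lies above all other libraries.

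Among the receptors and signalling genes of these pathways the shifts were modest and mostly towards 18°C. In the Toll and Imd list 10 of 22 tested genes (45.5%, beside 16.6% of all genes) were called at 18°C and 2 (9.09%, beside 15.6%) at 29°C (median 0.29). They included spz, the Toll ligand (0.72), the thioester protein genes Tep3 (0.70) and Tep2 (0.55), the Imd kinase gene Tak1 (0.44) and the NF-kappaB genes Rel (0.39) and Dif (0.35). The 2 genes at 29°C encode the Toll adaptor kinase pll (-0.55) and its partner tub (-0.42). The call of pll was lost without 18°C replicate 2 or 3, without 29°C replicate 2 (adjusted p 0.274), or without any of 5 WT libraries. Peptidoglycan recognition proteins, which bind bacterial cell walls, had 4 of 16 (25%) called in each direction, beside the same shares of all genes. PGRP-SD, a secreted sensor, stood at 757.4, 800.9 and 706.5 normalized counts at 18°C and 228.8, 271.6 and 274.1 at 29°C (1.55 ± 0.12). PGRP-SB1 had 0.89. GNBP-like3, of the glucan-binding family, was higher at 29°C (-1.80 ± 0.09), as was PGRP-SC1a (-0.87), which shares reads with a near-identical copy and is uncertain. Serpins, inhibitors of the proteases that activate Toll and melanisation, gave 9 of 15 (60%) called at 18°C and 3 (20%) at 29°C. Spn55B had 0.99 and Spn88Ea 0.82.

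Of the clock genes, those called were all higher at 18°C. In the clock, Clk and cyc activate per, tim, vri, Pdp1 and cwo, whose products feed back on them. Of 12 clock genes, 7 were called at 18°C and none at 29°C (median 0.30). The repressor gene vri stood at 576.9, 590.7 and 553.6 normalized counts at 18°C against 139.2, 161.7 and 111.9 at 29°C (2.05 ± 0.12, adjusted p 7.03e-09). The period gene per stood at 108.6, 94.3 and 98.2 against 36.4, 36.4 and 56.0 (1.22 ± 0.18), tim at 320.3, 268.1 and 262.3 against 130.8, 155.2 and 169.8 (0.89 ± 0.13), and cwo at 217.2, 264.7 and 228.1 against 169.0, 143.1 and 140.9 (0.65 ± 0.10). The temperatures did not overlap in these 4 genes. Smaller calls were slmb (0.36), sgg (0.36) and Pdp1 (0.25), and the activators Clk (-0.23, adjusted p 0.399) and cyc (0.19, adjusted p 0.265) were not called. Without the 18°C library that has no number the count at 18°C was 4 of 12. The response of none of the 12 genes differed between the strains.

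Detoxifying enzymes gave many calls at 18°C. Cytochrome P450 enzymes oxidise toxins, hormones and fatty acids, and 24 of 69 tested genes (34.8%, beside 16.6% of all genes) were called at 18°C and 10 (14.5%, beside 15.6%) at 29°C. Cyp6a20, known for its link to male aggression, stood at 169.7, 192.0 and 223.8 normalized counts at 18°C against 14.0, 25.1 and 34.7 at 29°C (2.99 ± 0.27, adjusted p 6.98e-07). Others at 18°C were Cyp4e3 (1.67), Cyp6a8 (1.67) and Cyp4ac3 (1.09). At 29°C the mitochondrial family member Cyp12a4 stood at 84.99, 88.1 and 69.5 against 6.79, 11.2 and 14.5 at 18°C (-2.82 ± 0.18), and Cyp12d1-d at 324.1, 306.3 and 277.9 against 65.2, 39.8 and 50.4 (-2.58 ± 0.16). Both sets of libraries were apart. Cyp12d1-d has a near-identical copy, Cyp12d1-p (-1.81), and reads may be split between them.

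Conjugating and peroxide-removing enzymes leaned the same way. Of 31 glutathione transferase genes, which attach glutathione to toxins, 12 (38.7%) were called at 18°C and 4 (12.9%) at 29°C (median 0.25). All genes gave 16.6% and 15.6%. GstD2 stood at 236.2, 90.8 and 120.5 normalized counts at 18°C against 32.7, 30.7 and 47.3 (1.99 ± 0.29), GstE3 had a log2 fold change of 1.07 ± 0.08 and GstE13 0.98 ± 0.09. GstE8 was higher at 29°C (-0.94 ± 0.20). Among antioxidant enzymes 7 of 17 were called at 18°C and 3 at 29°C. The peroxiredoxin gene Prx2540-2 stood at 438.4, 384.0 and 436.5 against 105.5, 111.5 and 67.6 (2.14 ± 0.14), with the near-identical Prx2540-1 at 1.28, and the phospholipid peroxidase gene PHGPx had 0.66. Of 18 UDP-glycosyltransferases, which attach sugars, 5 were called at 18°C, led by Ugt86Di (1.63, adjusted p 0.0486, lost in every fit that left out a hypomorph library), and 1 at 29°C, Ugt37b1 (-1.60). Of 12 metal-handling genes 4 were called at 18°C and 1 at 29°C. The metallothionein gene MtnE stood at 67.9, 50.2 and 76.0 at 18°C against 12.1, 13.7 and 10.6 (2.39 ± 0.45), whereas MtnA, of the same family, stood between 16500 and 16920 at 18°C and between 23840 and 29260 at 29°C (-0.70 ± 0.07). The ferric iron carrier gene Tsf1 had 0.61.

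**Figure D4:**
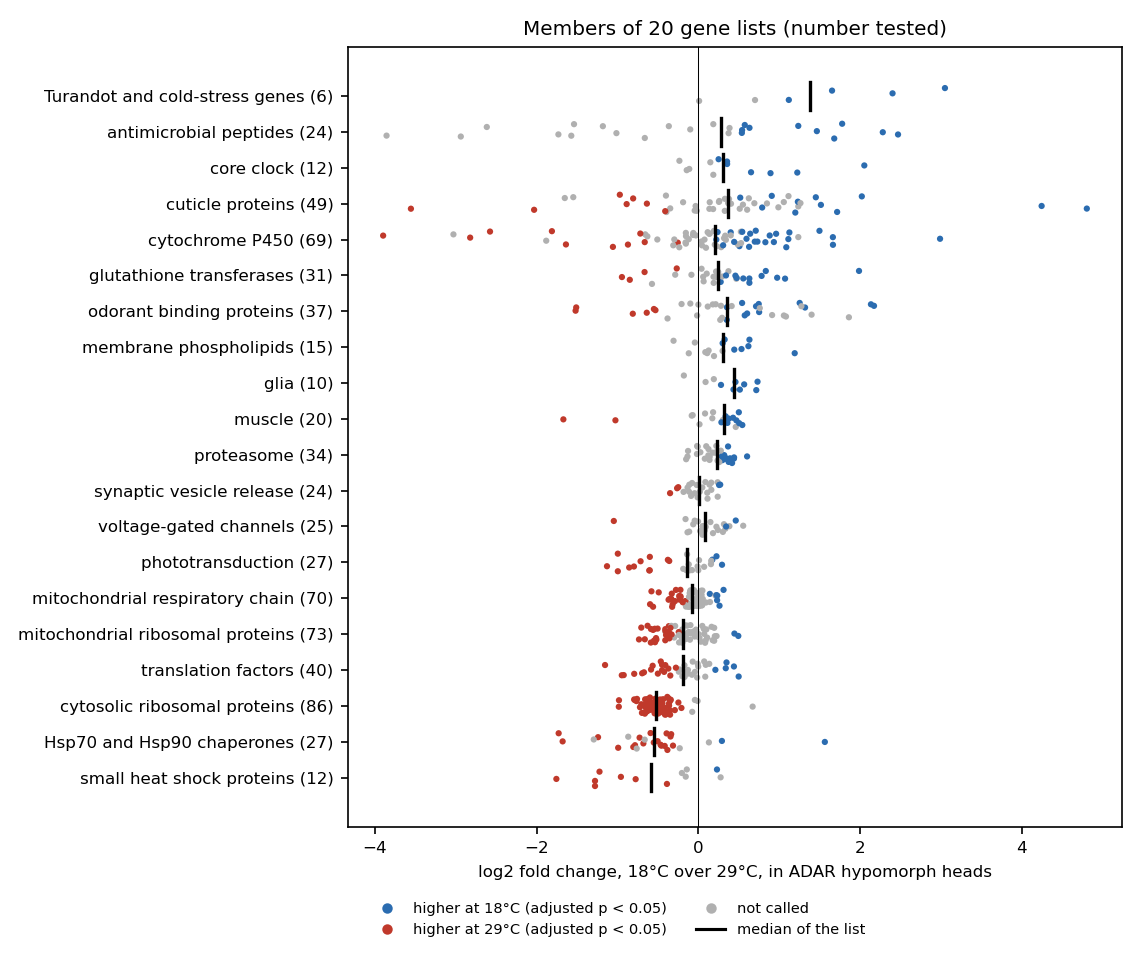
Each point is 1 tested gene of 20 lists, placed by its log2 fold change of 18°C over 29°C in ADAR hypomorph heads, blue where called at 18°C, red where called at 29°C and grey where not called, with a bar at the median. Turandot genes have the highest median (1.39) and small heat shock proteins the lowest (-0.58), while cytosolic ribosomal proteins form a narrow red band around -0.52.

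Genes of the cuticle and of smell were spread widely in both directions. Of 49 cuticle protein genes 11 (22.4%, beside 16.6% of all genes) were called at 18°C, 8 of them over 2-fold, and 7 (14.3%, beside 15.6%) at 29°C, shares near those of all genes (median 0.37). Beside Ccp84Ag and TwdlE at 18°C stood Cpr72Ec at 29°C, with 210.4, 218.8 and 317.8 normalized counts at 18°C and 2376, 3245 and 3212 at 29°C (-3.55 ± 0.15, adjusted p 3.04e-10). Cpr64Ac was also higher at 29°C (-2.03 ± 0.41). Chitin metabolism, which builds the other part of the cuticle, had 7 of 22 genes (31.8%) called at 18°C and 3 (13.6%) at 29°C. Its members at 18°C included the chitin-binding obst-B (1.00), the deacetylase genes Cda4 (0.87) and verm (0.86), and the growth factor-like chitinase relative Idgf5 was lower there (-0.79). Without 29°C replicate 3 the chitin count at 18°C was 3, and verm lost its call (adjusted p 0.0527).

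Odorant binding proteins carry odours in the fluid of the antennal and taste hairs. Of 37 tested genes 12 (32.4%, beside 16.6% of all genes) were called at 18°C and 6 (16.2%, near 15.6%) at 29°C (median 0.35). Obp56b stood at 62.4, 75.3 and 71.8 normalized counts at 18°C against 6.54, 21 and 18.3 (2.17 ± 0.29), and Obp56c had 2.14 ± 0.47. Obp83cd (-1.52 ± 0.30) and Obp19b (-1.51 ± 0.15) were higher at 29°C. The antennal genes Obp83a and Obp69a stood at 809.0 and 248.4 in the 18°C library without a number. They stood at 93.4 and 30.3 in replicate 2 and at 237.5 and 64.1 in replicate 3. Both genes were picked because that library stood apart. The summed CPM of the whole list was 10000 in it, against 9968 in replicate 2 and 10310 in replicate 3. Neither Obp83a nor Obp69a was called (adjusted p 0.0802 and 0.0974). Of 140 chemoreceptor genes in the table only 11 passed the filter on low counts, and 1 of these was called at 18°C and 2 at 29°C.

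Membrane phospholipid and fatty acid genes were called mostly at 18°C. Of 15 genes of membrane phospholipid synthesis 7 were called at 18°C and none at 29°C (median 0.30). The lipid phosphate phosphatase gene laza stood at 918.9, 846.8 and 836.3 normalized counts at 18°C against 356.8, 402.5 and 377.3 (1.19 ± 0.08, adjusted p 4.31e-08). The phosphatidylcholine synthesis gene Cct2 had 0.63, the ethanolamine kinase gene eas 0.62 and wun, another lipid phosphate phosphatase, 0.53. In fatty acid synthesis and lipid storage 10 of 27 genes were called at 18°C and 4 at 29°C. Desat1, which places the double bond in fatty acids, stood at 8927, 10270 and 8761 at 18°C against 5494, 6270 and 6240 at 29°C (0.63 ± 0.07). Lsd-1, which coats lipid droplets, was higher at 29°C, with 990.9, 919.8 and 927.4 against 472.4, 563.9 and 685.1 (-0.72 ± 0.12). These pairs did not overlap. Among lipoproteins, lipid carriers and lipases 7 of 17 were called at 29°C and 2 at 18°C, against 5 in each direction with library totals, and the sterol carrier relatives split, with Npc2a at -0.58 ± 0.06 and Npc2h at 0.69 ± 0.07.

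Hormone genes called at 18°C were 3 of 12 in the juvenile hormone list and 6 of 22 in the ecdysone list. In the insulin and adipokinetic hormone list 4 of 17 were called at 18°C. At 29°C 1 ecdysone gene was called. The shares of the 3 lists at 18°C ran from 23.5% to 27.3%, beside 16.6% of all genes. Whether they differ from that of all genes was not tested. The list medians were 0.39, 0.11 and 0.06 in the same order, against 0.01 for all genes. The juvenile hormone epoxide hydrolase gene Jheh1 stood at 673.2, 659.1 and 571.5 normalized counts at 18°C against 289.5, 303.1 and 267.3 (1.14 ± 0.08). The hormone receptor gene gce had 0.48. In the ecdysone list phm, a P450 of ecdysone synthesis, had 2.25 ± 0.39, the ecdysone-inducible ImpE1 1.68 ± 0.30 and the ecdysone importer gene Oatp74D 1.22 ± 0.16. AkhR, the receptor of the hormone that mobilises fat, stood at 206.3, 217.1 and 204.2 against 113.9, 109.1 and 136.1 (0.81 ± 0.13). The kinase gene Sik3 had 0.85, and Ilp5, an insulin-like peptide of the brain, 0.37.

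Protein degradation and acidification leaned to 18°C, with counts that moved when single libraries were left out. Of 34 proteasome subunits 14 (41.2%, beside 16.6% of all genes) were called at 18°C and none at 29°C (median 0.23). The count at 18°C was 9 without 18°C replicate 2 and 5 without 18°C replicate 3. It was 6 without the 29°C library that has no number and 4 without 29°C replicate 3. Prosbeta3 stood at 894.5, 788.8 and 991.8 normalized counts at 18°C against 563.2, 651.5 and 544.3 (0.60 ± 0.09, adjusted p 0.000136). The vacuolar proton pump, which acidifies synaptic vesicles and lysosomes, had 10 of 21 subunits (47.6%) called at 18°C and 3 (14.3%, near 15.6% of all genes) at 29°C. The count at 18°C was 5 without either the 18°C library that has no number or 29°C replicate 3. Vha44 stood at 1044, 989.5 and 956.8 against 723.8, 771.9 and 781.7 (0.39 ± 0.07), and Vha36-3 was the largest in the other direction (-0.54 ± 0.12).

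The cytosolic ribosome was higher at 29°C in nearly all of its genes. Of 86 tested ribosomal protein genes 82 were called at 29°C and none at 18°C, with a median of -0.52. sta, the ribosomal protein SA gene, stood at 12750, 16160 and 15030 normalized counts at 18°C and 28750, 29360 and 28750 at 29°C (-0.98 ± 0.07, adjusted p 5.32e-08). RpS20 stood at 14110, 16820 and 16140 against 30620, 31780 and 30520 (-0.98 ± 0.06), and RpLP0, of the ribosomal stalk, at 11850, 13190 and 13050 against 22190, 22640 and 20880 (-0.79 ± 0.06). No library crossed over in these genes. The 4 genes not called were RpL41 (-0.04), RpL7-like (-0.01), RpLP0-like (-0.07) and RpS5b (0.67, adjusted p 0.283). Summed over the family, TMM-normalized CPM ran from 178700 to 215400 at 18°C and from 282200 to 290300 at 29°C. With library totals as the scale 79 genes were still called at 29°C and 1 at 18°C. In WT the count was also 82 of 86, with a median of -0.44, and no member differed between the strains.

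Other genes of protein synthesis leaned towards 29°C on the TMM scale. Of 40 translation factors 17 were called at 29°C and 5 at 18°C (median -0.18), and with library totals the counts were 15 and 10 with a median of 0.00. Ef1beta stood at 3419, 4298 and 3924 normalized counts at 18°C against 8426, 8762 and 8713 (-1.15 ± 0.07, adjusted p 1.32e-08). The initiation factor genes eIF-3p40 (-0.92 ± 0.07), CG5642 (-0.95 ± 0.06) and CG7414 (-0.79 ± 0.06) moved the same way, whereas Thor, which restrains initiation by binding eIF4E, was higher at 18°C, with 3917, 4350 and 4517 against 3561, 3313 and 3228 (0.34 ± 0.07). Of 73 mitochondrial ribosomal proteins 24 were called at 29°C and 2 at 18°C on the TMM scale, but 13 and 14 with library totals. mRpL12 was the largest (-0.73 ± 0.07). In ribosome biogenesis 6 of 31 (19.4%) were called at 29°C, near the 15.6% of all genes. At 18°C 2 (6.45%, beside 16.6%) were called, and library totals gave 5 and 5. Non1 stood at 2089, 2375 and 2056 against 4561, 4739 and 4564 (-1.09 ± 0.07), and the polymerase I subunit gene RpI1 had -0.64.

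Chaperones, which fold and refold proteins, were also higher at 29°C. Of 27 Hsp70, Hsp90, Hsp60, chaperonin and cochaperone genes 19 were called at 29°C and 2 at 18°C, with a median of -0.55. Hsp70Aa and its near-identical copy Hsp70Ab stood at 29.9, 31.1 and 23.9 and at 29.9, 29.4 and 23.9 normalized counts at 18°C, against 86.9, 118.0 and 74.3 and 84.1, 107.5 and 72.4 at 29°C (-1.73 ± 0.19 and -1.68 ± 0.18), and reads of the copies cannot be told apart. Hop, a cochaperone that joins Hsp70 to Hsp90, stood at 215.8, 229.2 and 270.8 against 638.8, 563.4 and 495.1 (-1.24 ± 0.11). The constitutive Hsc70-4 stood at 11410, 12750 and 12800 against 19040, 19420 and 17190 (-0.59 ± 0.06). The 2 genes at 18°C were the heat shock factor gene Hsf (0.29 ± 0.08) and Hsc70-2 (1.57 ± 0.50, adjusted p 0.0256), whose call was lost without any one of 5 hypomorph libraries (adjusted p 0.0677 to 0.136). Of 12 small heat shock proteins, which hold unfolded proteins in solution, 7 were called at 29°C and 1 at 18°C (median -0.58). Hsp23 stood at 62.4, 51.9 and 39.3 against 172.8, 166.5 and 170.8 (-1.76 ± 0.19), and Hsp26 at 57.0, 66.6 and 57.2 against 112.1, 168.9 and 141.9 (-1.22 ± 0.16). Hsp22 and Hsp67Bb carry identical counts in the table and are 1 measurement (-1.28 ± 0.13), so that counted once the list had 6 of 11 called at 29°C. In the endoplasmic reticulum list 3 of 15 (20%) were called at 18°C and 2 (13.3%) at 29°C, with Ire1, a sensor of unfolded proteins, at 0.60 and the disulfide isomerase gene CaBP1 at -0.71.

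The eye showed a split within its own cascade. In fly vision rhodopsin activates Galphaq, phospholipase C (norpA) makes the signal, and the channels trp and trpl open, while arrestins and the kinase inaC end the response. Of 27 phototransduction genes 11 were called at 29°C and 3 at 18°C on the TMM scale, and 9 in each direction with library totals. The channel gene trpl stood at 2667, 2481 and 2242 normalized counts at 18°C against 5290, 5629 and 5240 at 29°C (-1.13 ± 0.08, adjusted p 1.05e-07), and trp at 6696, 6690 and 5974 against 11560, 11210 and 10830 (-0.80 ± 0.07). The protein kinase C gene inaC had -0.85 ± 0.08, norpA -0.61 ± 0.07 and Galphaq -0.71. The channel partner inaF-B stood at 2022, 2350 and 2233 against 4482, 4559 and 4133, and inaF-D shares those reads. The 2 arrestins went apart: Arr2 stood at 63720, 65590 and 60870 against 92860, 97280 and 98140 (-0.60 ± 0.08), and Arr1 at 36710, 36160 and 36060 against 30680, 30790 and 31700 (0.23 ± 0.08, adjusted p 0.0357), a call lost without any one of the 6 hypomorph libraries (adjusted p 0.0671 to 0.0964). The main rhodopsin gene ninaE had -0.38 ± 0.09, with no call under library totals (-0.19, adjusted p 0.108). Rh3, Rh5, Rh6, inaD, ninaC and rdgA were not called. The 3 genes at 18°C were ninaA, Arr1 and Rh4, and the count was 0 without the 18°C or the 29°C library that has no number or without 29°C replicate 3, and 1 without 18°C replicate 2 or 3. Of 15 chromophore and pigment genes 5 were called at 18°C, led by Pu, which starts pteridine synthesis (1.02), and the retinol dehydrogenase gene rdhB (0.95), and 2 at 29°C, the ommochrome enzyme gene v (-1.16) and the pigment transporter gene bw (-1.15).

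Energy metabolism divided between steps. Of 15 glycolysis genes 7 (46.7%, beside 16.6% of all genes) were called at 18°C and 3 (20%, beside 15.6%) at 29°C (median 0.15). The hexokinase gene Hex-A stood at 1836, 1671 and 1756 normalized counts at 18°C against 1314, 1202 and 1192 (0.51 ± 0.06), and the lactate dehydrogenase gene ImpL3 had 0.54 ± 0.12. At 29°C Pgi stood at 5544, 5429 and 5368 against 3723, 3890 and 3802 (-0.52 ± 0.05), and fbp, of gluconeogenesis, had -0.57 ± 0.07. In trehalose and glycogen metabolism 4 of 9 were called at 29°C and 1 at 18°C, against 2 and 4 with library totals. The glycogen branching enzyme gene AGBE was at 18°C (0.74 ± 0.11) and glycogen synthase GlyS at 29°C (-0.43 ± 0.07). The citrate cycle had 5 of 18 (27.8%) in each direction (8 and 1 with library totals), with the malic enzyme gene Men at 0.56 and Mdh2 at -0.47. Its count at 29°C was 3 without the 18°C or the 29°C library that has no number, or without 29°C replicate 2. Of 70 respiratory chain genes 21 were called at 29°C and 6 at 18°C on the TMM scale, which turned to 8 and 31 with library totals, so the family has no direction free of the scale. The complex I subunit gene ND-PDSW had the largest change (-0.60 ± 0.06).

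Neuronal genes, the class that holds the best known ADAR targets, gave counts that depended on the scale and on single libraries. Of 25 voltage-gated channel genes 2 (8.0%, beside 16.6% of all genes) were called at 18°C, Hk and unc79, and 1 (4.0%, beside 15.6%) at 29°C, the potassium channel gene Elk (-1.05 ± 0.24). The count at 18°C was 4 without 18°C replicate 2 and 9 with library totals. Hk, a potassium channel beta subunit, had 0.46 and lost its call without the 18°C library that has no number or without 29°C replicate 3 (adjusted p 0.112 and 0.069). Of 24 genes of synaptic vesicle release 2 (8.33%) were called at 18°C and 3 (12.5%) at 29°C, both below the shares of all genes. Those at 29°C were nSyb (-0.35 ± 0.07), Snap25 (-0.26 ± 0.07) and cpx (-0.25). With library totals the counts were 9 and 0, and nSyb and Snap25 were not called (adjusted p 0.0835 and 0.47). Of 53 neuronal recognition genes 3 (5.66%) were called at 18°C and 1 (1.89%) at 29°C, dpr21 (-0.48 ± 0.09), also below the shares of all genes. The 3 became 1 without the 18°C library that has no number or without 29°C replicate 2, and 13 with library totals. Of 12 nicotinic receptor subunits 3 (25%) were called at 18°C, with nAChRbeta2 at 0.54 ± 0.11, and 1 at 29°C, nAChRalpha5 (-0.59 ± 0.14). The count of 3 was 1 without either library that has no number or without 29°C replicate 2, and the count of 1 was 3 without the 18°C library that has no number.

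Genes of transmitter supply and signalling peptides gave a few clear cases. Of 27 monoamine genes 4 (14.8%, beside 16.6% of all genes) were called at 18°C and none at 29°C. The dopamine transporter gene DAT stood at 78.7, 64.0 and 76.9 normalized counts at 18°C against 30.8, 34.8 and 35.7 (1.11 ± 0.22), Ddc, which makes dopamine and serotonin, had 0.80 ± 0.12, and the dopamine receptor gene Dop1R1 had 0.58 ± 0.11. Of 34 neuropeptide genes 6 (17.6%) were called at 18°C and 3 (8.82%, beside 15.6% of all genes) at 29°C, and the 6 became 3 without either library that has no number or without 18°C replicate 2, and 19 against 1 with library totals. Nplp1 had 0.52 ± 0.11, and CNMa was higher at 29°C (-1.42 ± 0.35). Of 10 activity-regulated genes 2 (20%) were called at 18°C, and the other 8 ran from -0.30 to 0.35. Arc1, which forms capsids that carry RNA between cells, stood at 4680, 1591 and 3225 at 18°C against 978.8, 1053 and 910.0 (1.69 ± 0.25, adjusted p 7.95e-05). The transcription factor gene sr stood at 123.5, 115.0 and 108.5 against 61.6, 49.3 and 68.5 (0.95 ± 0.20). In both genes all 18°C libraries were above all 29°C libraries, and the 18°C spread was wide in Arc1. Of 6 temperature-sensing channel genes that passed the filter 1 was called, wtrw at 18°C (0.45 ± 0.07), a share of 16.7%, near the 16.6% of all genes.

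Genes that act on RNA had more calls at 29°C on the TMM scale, and fewer with library totals. In the RNA editing and double-stranded RNA list 4 of 13 were called at 29°C, among them the double-stranded RNA binding protein genes loqs (-0.55 ± 0.11) and stau (-0.50 ± 0.06), and 2 at 18°C, with AGO2, the core of RNA interference, at 674.6, 669.5 and 708.2 normalized counts against 494.1, 430.0 and 526.9 (0.50 ± 0.08), and with library totals the counts were 2 and 3. Of 27 splicing regulators 9 were called at 29°C and 3 at 18°C, which became 6 and 10 with library totals. The female-specific splicing factor gene tra (-0.95 ± 0.17) was higher at 29°C and Hrb87F, an hnRNP, at 18°C (0.89 ± 0.08). Of 278 noncoding RNAs tested, of 2022 in the table, 37 (13.3%) were called at 18°C and 51 (18.3%) at 29°C, near the 16.6% and 15.6% of all genes, against 50 and 43 with library totals and 17 and 21 when a gene needed 10 counts in each of the 12 libraries to be tested. The count at 18°C was 23 without the 18°C library that has no number and 24 without 29°C replicate 2. CR45997 stood at 35.3, 34.6 and 21.4 at 18°C against 276.5, 382.3 and 266.4 at 29°C (-3.36 ± 0.24). The sources used here do not say whether counting used the strand, so overlapping antisense transcripts may share reads.

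Markers of the cell types in a head moved with temperature, and their part in the family results was not tested. Of 10 glial genes 7 were called at 18°C and none at 29°C (median 0.45), and their summed CPM ran from 1973 to 2143 at 18°C and from 1526 to 1550 at 29°C. The glial glutamate transporter gene Eaat1 stood at 1922, 2119 and 1897 normalized counts against 1237, 1183 and 1191 (0.72 ± 0.06), and the glial fate factor gene repo had 0.57 ± 0.13. Of 20 muscle genes 10 were called at 18°C and 2 at 29°C, the troponin C genes TpnC41C (-1.02) and TpnC47D (-1.67), with sums of 11230 to 12040 against 9071 to 10410. Of 10 blood cell genes 7 were called at 18°C and 2 at 29°C, Hml (-0.37) and NimC1 (-0.37, adjusted p 0.0499, lost in 17 of 20 alternatives), with sums of 1916 to 1996 against 1541 to 1609. Photoreceptor genes went the other way, with 7 of 14 called at 29°C and 2 at 18°C (5 and 4 with library totals) and sums of 31180 to 31660 at 18°C against 39320 to 41660. Of 11 neuronal markers 4 were called at 29°C, among them elav (-0.54 ± 0.10), and 2 at 18°C (2 and 4 with library totals), with sums of 1234 to 1443 against 1365 to 1449, which overlapped. Of 20 ovary genes 3 passed the filter and none was called, and of 58 testis and accessory gland genes 10 were tested. Only Mst36Fb was called (-1.71, adjusted p 0.0446), at 29°C, and its call was lost in 16 of 18 alternatives. These included leaving out any one of 5 hypomorph libraries (adjusted p 0.0646 to 0.181) or any one WT library. Gut enzymes gave 2 of 20 called at 18°C and 3 at 29°C, and the latter count ran from 0 to 12 when single libraries, WT ones included, were left out. The gut sum was 1479 in 29°C replicate 2 against 529.0 and 557.8 in the other 29°C libraries. WT 29°C replicate 2 was likewise high, at 2931 against 641.5 and 625.7 in the other WT 29°C libraries.

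Markers of sex and fat body also differed, and the sex of the flies is not stated. The yolk protein genes, made by the female fat body, were higher at 29°C: Yp1 stood at 49480, 76830 and 73440 normalized counts at 18°C against 159100, 146100 and 161200 at 29°C (-1.22 ± 0.11, adjusted p 1.15e-06), with Yp3 at -0.68 and Yp2 at -0.49. The summed CPM of 4 female head genes was 20770 to 32080 at 18°C and 44800 to 51740 at 29°C, the lowest being the 18°C library without a number. Of 7 male head genes 2 were called at 18°C, roX1 and the feeding gene to (1.29 ± 0.14), and 3 at 29°C, roX2 (-1.64 ± 0.18), sxe2 (-0.88 ± 0.11) and msl-2 (-0.46), a call lost without 18°C replicate 2 or any 29°C library (adjusted p 0.0678 to 0.147). The larval serum protein genes encode storage proteins named for the larva, and the values here are their transcripts in adult heads. Of the 6 genes in their list 3 were called at 29°C and none at 18°C. Lsp1gamma went the other way without a call (0.38, adjusted p 0.336). Lsp2 stood at 213.1, 152.2 and 210.2 against 1308, 766.2 and 1474 (-2.63 ± 0.20), and Lsp1beta at 160.2, 115.9 and 127.3 against 453.0, 519.7 and 538.5 (-1.92 ± 0.17). Both were lower in every 18°C library. The share of females and the amount of fat body cannot be told apart from expression per cell here.

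The WT libraries, which are not shared between the 2 contrasts, gave a response of the same breadth, with 1651 genes at 18°C (17.3%) and 1539 at 29°C (16.1%). Of the hypomorph calls, 1006 at 18°C and 974 at 29°C were called in the same direction in WT, 29 were called in the opposite direction, and 571 and 495 were not called in WT. A call in 1 strain alone does not show a difference, and the difference of the 2 responses was called for 222 of 9553 genes (2.32%). Of the 485 genes over 2-fold in the hypomorph 328 were called the same way in WT, and 48 differed in their response. In 45 of these 48 the difference had the sign of the hypomorph change. That includes genes that moved the other way in WT, such as Lsp2, so it does not compare the sizes of the 2 changes. These 485 were chosen by their size in the hypomorph, so that count is a description.

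The lists with the most such differences hold only a small part of the 222 genes. All 6 larval serum and fat body genes differed. Lsp2 was lower at 18°C in the hypomorph and higher at 18°C in WT, where its mean normalized count fell from 7329 at 18°C to 1374 at 29°C (difference -5.04, adjusted p 5.51e-08). Of 20 muscle genes 7 differed, with the smaller change in the hypomorph for those named: Mlc1 had 0.29 ± 0.08 against 0.90 in WT (adjusted p of the difference 0.00676), and Prm, paramyosin, 0.35 ± 0.08 against 0.93 (adjusted p 0.0089). The call of Mlc1 in the hypomorph was lost without 29°C replicate 2 or 3 (adjusted p 0.0536 and 0.0621). Of 15 glycolysis genes 6 differed. For Pgi the WT means were 4423 at 18°C and 4161 at 29°C (0.09), and the difference from the hypomorph response was -0.61 (adjusted p 0.000179). Men had 0.56 in the hypomorph and 1.25 in WT (adjusted p of the difference 0.000171).

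Single genes differed as well. Cpr72Ec and Cyp12a4 hardly moved in WT (0.04 and 0.21), with differences of -3.59 and -3.04. Cyp6a20 had 0.33 in WT (difference 2.66, adjusted p 0.00106) and isoQC 0.31 (difference 1.42, adjusted p 9.64e-07). Arc1 had its means in the opposite order in WT, 1509 at 18°C below 2493 at 29°C (-0.72, difference 2.41, adjusted p 0.00102). Ef1beta had -1.15 in the hypomorph and -0.54 in WT (adjusted p of the difference 0.00236). By contrast, no member of the cytosolic ribosome, clock, proteasome, glial or synaptic release lists was called for a difference, and this does not show that their responses were equal.

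**Figure D5:**
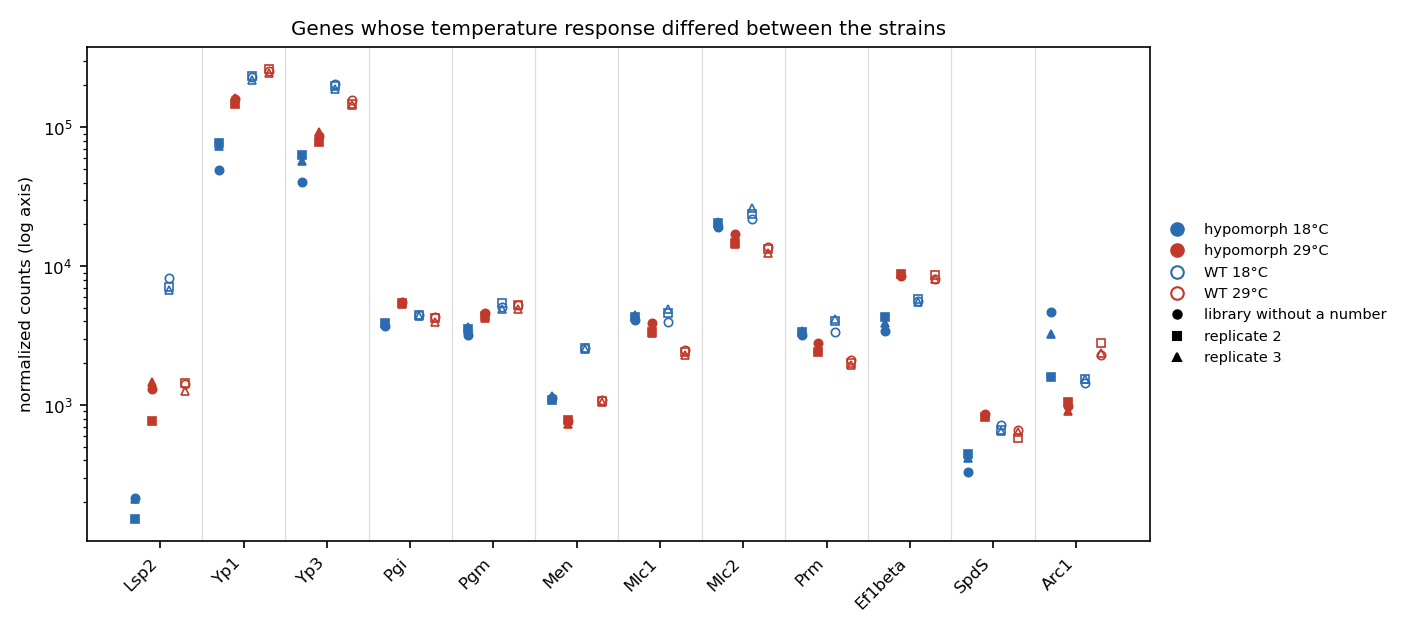
Normalized counts (log axis) of 12 genes called for a difference in temperature response, filled symbols for ADAR hypomorph and open symbols for WT, blue for 18°C and red for 29°C, with the symbol giving the library. Lsp2, Yp3 and Arc1 are among the genes whose temperature means have the opposite order in the 2 strains. So is SpdS, which averages 678.1 and 625.9 at 18°C and 29°C in WT, while its hypomorph groups lie apart and are higher at 29°C.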

How the data were processed

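Total RNA from fly heads was sequenced as 3′ digital gene expression libraries. The authors aligned reads with TopHat to the dm3 genome and counted reads at transcript 3′ ends with ESAT, and the deposited values used here are raw counts per gene. The sources used here do not say whether counting used the strand. Deposited columns of the authors' differential expression results were not used, and 4 columns that belong to no sample described here were left out. In each group 1 column carries no number and was taken as a further replicate.

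Of 15423 genes, 14611 had a count and 9553 passed edgeR's filterByExpr (minimum count 10). All 12 libraries entered 1 quasi-likelihood fit (edgeR 4.0.16, R 4.3.3) with TMM factors, a common biological coefficient of variation of 12.9% and Benjamini-Hochberg adjustment over all genes tested. Normalized counts refer to a mean effective library of 6959802 counts. The fit was tested on simulated counts. Alternatives used DESeq2 1.42.0, other scalings and filters, the hypomorph libraries alone, a replicate block and each library left out in turn. Tables and figures used Python 3.11.15, pandas 2.3.3, numpy 2.4.6, scipy 1.17.1 and matplotlib 3.10.9.

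Named genes were the 12 largest changes and the 8 most abundant over 2-fold in each direction, up to 4 called members of each list, called members of marker lists, and Adar. Other genes named in the text were chosen after their values were seen. The comparison, the members and the lists were chosen with earlier results of these data known. Cct1 and Cct2 among chaperones, Cyp1 and CG8336 among cytochrome P450 genes, Cp1, Cp110 and Cp190 among ovary genes and Acp65Aa among testis genes had been caught by name patterns and were removed after values were seen.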

Additional observations from a re-analysis of the deposited data

Results flagged for a closer look

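These named genes had a temperature response that differed between ADAR hypomorph and WT by the interaction term of the edgeR fit (adjusted p under 0.05), and the values are hypomorph minus WT on the log2 scale, positive where the hypomorph leaned more to 18°C. Storage and yolk proteins were all below 0, with Lsp1alpha at -5.81, Lsp2 at -5.04, Lsp1beta at -1.21, Yp2 at -1.27, Yp1 at -1.07 and Yp3 at -1.07. The Lsp1alpha call in the hypomorph itself was lost when single hypomorph libraries were left out. Muscle genes were also below 0, with Act57B at -0.63, Mlc1 at -0.62, Prm at -0.58 and Mlc2 at -0.48. Sugar and energy metabolism gave -0.73 for fbp, -0.68 for Men, -0.61 for Pgi, -0.57 for ND-13B, -0.49 for Nurf-38 and -0.35 for Pgm, while the amylase gene Amy-d had 1.03.

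In the cuticle, Ccp84Ag had 2.24, Cpr72Ec -3.59 and Cda4 -1.40. Among cytochrome P450 genes, Cyp6a20 had 2.66, Cyp12a4 -3.04 and Cyp12d1-d -1.52. Stress and immune genes were above 0, with PGRP-SD at 0.90, Hsp22 and Hsp67Bb at 0.87 (identical counts), TotX at 0.79, Drsl4 at 0.74 and MtnA at 0.58. The remaining genes were CG1722 (4.13), Arc1 (2.41), isoQC (1.42), CG13315 (0.45), Ef1beta (-0.62), CG7214 (-1.05) and CG7763 (-4.39).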

How the results depend on the processing

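The scale changed the counts in each direction: with library totals in place of TMM, 3003 genes were called at 18°C and 840 at 29°C, and Adar was called at 18°C (0.51, adjusted p 0.0173). When a gene needed 10 counts in each of the 12 libraries to be tested, 273 were over 2-fold, since genes low at 1 temperature are then not tested. By an unadjusted p under 0.05 with over 2-fold, 297 genes were higher at 18°C and 291 at 29°C. DESeq2 called 1419 and 1363 genes. Fits that dropped 1 library each gave 1277 to 1576 genes at 18°C, 1243 to 1507 at 29°C, 426 to 515 over 2-fold and 154 to 214 with a different response in WT. Replicate numbers 2 and 3 did not pair the hypomorph libraries (correlations of deviations 0.0468 and 0.0670). With them as a replicate block in the 8 numbered libraries, 1033 genes were called at 18°C, 1044 at 29°C and 77 differed between strains, against 1059, 1035 and 69 in the same libraries without the block. Of 266 named genes, each tested in 16 to 20 alternatives, 193 kept their call wherever they were tested and 72 lost it in at least 1. Jon99Ciii had -6.77 with all libraries, and leaving out single libraries gave -7.73 to 0.53, the latter without 29°C replicate 2. Depth limited low genes: at 3 counts or fewer in a group, intervals of the ratio spanned 10-fold or more.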

Other observations

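The gene groups below were chosen after their values were seen and are given as values only. Of 12 RNA polymerase II subunit genes 8 were called at 29°C and none at 18°C (median -0.42), and WT gave the same count, while the largest subunit gene RpII215 was not called (0.04, adjusted p 0.806). Of 43 DNA replication and repair genes 13 were called at 18°C and none at 29°C (median 0.41), against 12 in WT. The thymidylate synthase gene Ts stood at 14.9, 18.2 and 23.9 normalized counts at 18°C and 1.87, 3.23 and 3.86 at 29°C (2.64 ± 0.49), and the mismatch repair gene spel1 had 1.32 ± 0.26. Of 18 spliceosomal small nuclear RNA genes 7 were called at 29°C and none at 18°C (median -0.65). Several of these are near-identical copies whose reads may be shared.

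The chromatin proteins HmgZ and HmgD, of the high mobility group family, were higher at 18°C. HmgZ stood at 2005, 1802 and 1922 normalized counts against 764.9, 818.0 and 789.4 (1.27 ± 0.07), and HmgD had 1.12 ± 0.07. Diedel, a secreted immune regulator, had 2.51 ± 0.49. The polyamine genes Odc1 and SpdS were called at 29°C, as were SelD and EfSec. Odc1, which starts polyamine synthesis, stood at 319.0, 451.5 and 396.4 at 18°C and 1030, 984.5 and 863.7 at 29°C (-1.30 ± 0.11), and the spermidine synthase gene SpdS had -1.08 ± 0.09 against 0.11 in WT (adjusted p of the difference 0.000124). SelD, now named Sps1, stood at 42.1, 54.5 and 47.8 against 247.5, 256.2 and 248.0 (-2.36 ± 0.12). EfSec, the selenocysteine elongation factor gene, had -1.37 ± 0.39, called in 14 of 19 fits. The glucosidase gene tobi, known as a target of brain hormones, had -2.80 ± 0.26. In these genes the temperatures did not overlap.

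By position, chromosome 4 had 27 of its 86 tested genes called at 18°C (31.4%) and 8 at 29°C (9.3%), and the other arms ran from 14.6% to 18.0% at 18°C. Genes over 2-fold higher at 18°C stood next to each other in 3 places. Drsl3, Drsl4 and Drsl5 on 3L had log2 fold changes of 1.47 to 2.47, a run of 6 small genes on 3L from CG13065 to CG13063 had 1.01 to 3.59, and CG11668, Hsc70-2 and CG31157 on 3R had 1.51 to 2.10. Overlapping or copied genes can share reads in such runs.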
